A study of Mus musculus with 12 samples.

Results

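The genes at the distal end of mouse chromosome 12, from 80 Mb to the telomere, were described in 12 libraries of chromatin-associated RNA. The 338 members were chosen by a rule on position, namely rows of the count files on chromosome 12 whose lowest start was 80000000 or more (mm10) and whose length was under 500000 bases. Dlk1, Meg3, Rian, Mirg, Rtl1, Esrrb and names that begin with Nduf, Mrpl, Mrps, Rpl, Rps or Hist were left out. The segment itself was selected on its parental share and its level in these same libraries, so both are given below as descriptions with no test. The files held 22556 genes, of which 712 lay on chromosome 12 and 349 of those at or above 80 Mb. The 11 genes that were left out there were Rgs6, Nrxn3 and Ptprn2 by length, Esrrb, Dlk1, Meg3, Rtl1, Rian and Mirg by name, and Rps6kl1 and Rps6ka5, which encode kinases and not ribosomal proteins, by the first letters of their names.

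The cells were iXist-ChrX, a female mouse embryonic stem cell (mESC) line from a cross of 129S and Castaneus (Cast) mice, grown on feeder cells that, by the study's methods, were removed by pre-plating before extraction, in which doxycycline (Dox) drives Xist from a TetOn promoter on the 129S X chromosome. WT carried no deletion in Xist and had 1 library in each state. XistDelA carried a deletion of the A-repeat region, in clones C1, 2C2 and C11 with 1 library each in each state, and XistDelm6A/T1_11C a deletion of the 5' m6A region, in a line with 2 replicates in each state. Each was sampled without Dox and after 24 h of Dox at 1.0 to 1.5 µg/mL, to ask how much each deletion changes silencing by Xist. All lines share the inducible promoter and derive from the same hybrid line, and each XistDelA clone is a single clone. The column headings of C11 give its deletion another designation than those of C1 and 2C2, so the 3 clones may not carry the same deletion, and counts of calls are also given without C11. The study's methods call its repeated experiments biological replicates, while the labels give the XistDelm6A/T1_11C libraries a number only.

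In hybrid cells, sequence variants assign a read to the 129S or the Cast genome, and the share of each genome at a gene reports how the parental copies contribute to its RNA. RNA that stays with chromatin is mostly nascent, so that it follows transcription closely. Distal chromosome 12 of the mouse holds the imprinted Dlk1-Meg3 cluster, which is expressed by parent of origin, and the immunoglobulin heavy chain locus near its end.

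Promoter sequence is shown for 5 members on which the results below turn. Zfp36l1 is the first member, Srsf5 has a high level and a low 129S share, Gtf2a1 and Btbd7 are members whose share fell with Dox in XistDelA, and Ckb has a 129S share far above that of its neighbours. Each line gives the 250 bases upstream of the RefSeq start site on GRCm38.p6, 5' to 3' on the strand of the gene, with CG dinucleotides in capitals. They come from the reference genome and from neither parental genome, so they do not show the variants that separate 129S from Cast.
Zfp36l1, chr12:80113014-80113263, minus strand: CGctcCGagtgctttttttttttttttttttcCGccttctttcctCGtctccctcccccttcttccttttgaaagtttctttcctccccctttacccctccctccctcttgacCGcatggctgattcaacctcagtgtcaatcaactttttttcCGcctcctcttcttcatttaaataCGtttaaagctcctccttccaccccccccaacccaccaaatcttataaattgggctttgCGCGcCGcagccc
Srsf5, chr12:80945249-80945498, plus strand: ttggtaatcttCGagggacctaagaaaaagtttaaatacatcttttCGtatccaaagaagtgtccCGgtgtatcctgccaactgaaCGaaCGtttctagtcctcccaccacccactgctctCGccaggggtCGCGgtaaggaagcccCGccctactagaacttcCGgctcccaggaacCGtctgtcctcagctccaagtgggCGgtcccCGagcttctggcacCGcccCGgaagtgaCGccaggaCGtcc
Gtf2a1, chr12:91590488-91590737, minus strand: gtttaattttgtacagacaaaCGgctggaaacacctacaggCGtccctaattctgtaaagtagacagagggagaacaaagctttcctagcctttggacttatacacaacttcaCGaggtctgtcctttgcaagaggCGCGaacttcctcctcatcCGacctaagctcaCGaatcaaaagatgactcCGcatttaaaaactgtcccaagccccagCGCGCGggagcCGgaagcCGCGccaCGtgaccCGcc
Btbd7, chr12:102878443-102878692, minus strand: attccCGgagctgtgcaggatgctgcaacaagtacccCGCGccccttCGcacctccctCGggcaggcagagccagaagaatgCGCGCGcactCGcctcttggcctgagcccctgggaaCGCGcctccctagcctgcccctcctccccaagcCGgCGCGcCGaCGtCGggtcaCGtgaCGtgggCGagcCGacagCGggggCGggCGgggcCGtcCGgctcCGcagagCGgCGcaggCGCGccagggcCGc
Ckb, chr12:111672339-111672588, minus strand: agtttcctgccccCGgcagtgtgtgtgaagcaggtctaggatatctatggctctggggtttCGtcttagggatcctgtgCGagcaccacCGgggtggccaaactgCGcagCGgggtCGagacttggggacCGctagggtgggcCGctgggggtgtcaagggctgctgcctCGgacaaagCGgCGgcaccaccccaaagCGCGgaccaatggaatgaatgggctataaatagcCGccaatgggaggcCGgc
These windows held 10 CG dinucleotides in Zfp36l1, 17 in Srsf5, 16 in Gtf2a1, 32 in Btbd7 and 16 in Ckb. A promoter was found for 265 of the 338 members, with a median of 13 CG, against a median of 6 over all 27025 promoters of the same length. Among 161 members with a promoter and 50 or more allelic counts on average, the median was 17. These are descriptions, and their relation to share or level was not tested.

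Library depth ran from 18893447 to 36007145 counts, and variants placed 44.6% to 47.1% of them on 1 of the parental genomes. Xist, the gene altered in the lines, was measured at 297 CPM, counts scaled to the library total, without Dox and 5514 with Dox in WT. In XistDelA it was 124 and 1543 CPM in C1, 126 and 1267 CPM in 2C2, and 158 and 1600 CPM in C11. In XistDelm6A/T1_11C it was 100.1 and 3140 CPM in replicate 1, and 85.6 and 4576 CPM in replicate 2. Every line was thus higher with Dox, and from 98.2% to 99.9% of the allelic Xist counts fell on the genome called 129S here. The counts cover whole gene spans, so they do not check the deletions.

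Of 10 mESC markers, 9 were detected, with a summed level from 1256 to 2225 CPM by library and Zfp42 as the most abundant, at a mean of 719 CPM. Both libraries of XistDelm6A/T1_11C replicate 2 were below the other 10, which had sums from 1641 to 2225 CPM. Klf4 was lower in that line, from 30.7 to 43.5 CPM against 66.3 to 98.6 CPM, as was Dppa5a, from 22.7 to 65.0 CPM against 75.0 to 119.1 CPM, while Tdgf1 and Dppa3 were not. Sox2 was at 0 in all 12 libraries, and it lies within Sox2ot on the same strand in the files. All 10 markers of feeder fibroblasts were detected, led by Fbn1 at a mean of 39.5 CPM, while Lum and Postn were at 0 in some libraries. The feeder sum was 54.1 and 48.6 CPM in WT without and with Dox, 58.7 and 52.7 in C1, 55.5 and 57.7 in 2C2, and 63.7 and 64.9 in C11. In XistDelm6A/T1_11C it was lower, at 42.6 and 39.5 CPM in replicate 1 and 34.0 and 30.2 CPM in replicate 2. All 8 markers of early differentiation were detected, with Otx2 as the most abundant, and their sums were from 48.0 to 65.2 CPM in WT and XistDelA and from 62.8 to 119.7 CPM in XistDelm6A/T1_11C. Gata4 and Gata6 were higher there in all 4 libraries and Otx2 was from 30.8 to 64.7 CPM against 14.4 to 32.5 CPM, while Pax6 was lower, from 1.42 to 2.22 CPM against 3.42 to 7.86 CPM. Fgf5 was at 11.04 and 7.75 CPM in replicate 1 and 1.48 and 0.474 CPM in replicate 2, against 2.15 to 7.78 CPM in WT and XistDelA, so replicate 2 lay below that range and replicate 1 near or above its top. Fbn1 made up most of each feeder sum, from 25.2 to 32.6 CPM in XistDelm6A/T1_11C and from 38.1 to 55.7 CPM in the other lines. Col1a2 was at most 6.88 CPM, and Pdgfrb was higher in XistDelm6A/T1_11C, from 1.14 to 2.44 CPM against 0.436 to 1.09 CPM. The part of these marker differences, and of feeder or differentiated cells, in the results below was not tested, and in these bulk libraries fewer cells of a type and less RNA per cell cannot be told apart.

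Of the 338 members, 281 are annotated as protein coding in GENCODE M21, 17 as lincRNA and 8 as antisense, and 15 names were not matched. No count was seen in any library for 20 members, and 272 had at least 1 count in every library. On average over libraries, 214 members had 50 or more counts and 196 had 50 or more allelic counts. These 196 are used for shares, unless stated otherwise, and 170 of them had at least 50 allelic counts in every library.

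The 129S share of a gene is its 129S counts divided by the sum of its 129S and Cast counts. Over the 196 members, the median share was 0.284 in WT without Dox and 0.290 with Dox. In XistDelA it was 0.283 and 0.287 in C1, 0.274 and 0.281 in 2C2, and 0.281 and 0.283 in C11, without and with Dox. In XistDelm6A/T1_11C it was 0.281 and 0.280 in replicate 1, and 0.266 and 0.272 in replicate 2. All 12 libraries thus lay between 0.266 and 0.290, around a mean of 0.280, and the SD over the 5 lines was 0.00518. By group, the mean of these medians was 0.279 ± 0.00479 (SD, n = 3) in XistDelA without Dox and 0.284 ± 0.00314 with Dox, and 0.273 ± 0.0106 (SD, n = 2) in XistDelm6A/T1_11C without Dox and 0.276 ± 0.00537 with Dox. The mean of 0.280 corresponds to 2.57 Cast counts for each 129S count.

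The other autosomal sets compared had higher shares in every library. The 211 genes on chromosome 12 below 80 Mb had medians from 0.498 to 0.519, and 9704 genes on the other autosomes, chromosomes 8 and 11 included, had medians from 0.516 to 0.528. No library of the members overlapped either range. On chromosome 8, which is also low in 129S, the medians of 588 genes were higher than those of the members, from 0.350 to 0.360. On chromosome 11, the medians of 849 genes differed by line. They were from 0.500 to 0.551 in WT, 2C2 and C11, and from 0.681 to 0.691 in C1 and XistDelm6A/T1_11C. Pooling all allelic counts of the 338 members, between 237949 and 487720 in a library, gave shares from 0.273 to 0.287. The lowest had a 95% Wilson interval from 0.271 to 0.275 and the highest one from 0.285 to 0.288, and such intervals cover counting error only, as the reads carry no molecular identifiers.

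**Figure D1:**
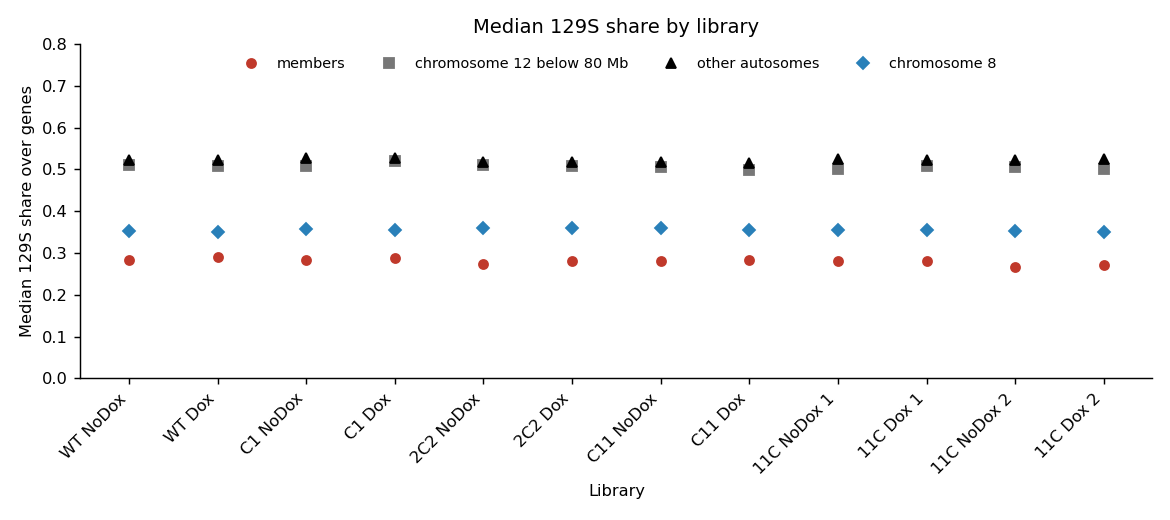
Median 129S share over genes (vertical axis) in each of the 12 libraries (horizontal axis; 11C stands for XistDelm6A/T1_11C), for the members, chromosome 12 below 80 Mb, the other autosomes and chromosome 8. The members sit between 0.266 and 0.290 in every library, below each of the other sets.

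Along the chromosome, the low share did not begin at 80 Mb. In windows of 5 Mb, the 22 genes that start between 70 and 75 Mb had medians from 0.488 to 0.528, and the 26 genes between 75 and 80 Mb, which are not members, had medians from 0.254 to 0.290. Hif1a, which encodes a subunit of the hypoxia-inducible factor and starts at 73907866, had a mean share of 0.509, and Snapc1 at 73964529 had 0.470. The next gene with 50 or more allelic counts on average was Ppp2r5e at 75450880, a regulatory subunit of protein phosphatase 2A, with 0.263, followed by Wdr89 with 0.296. The rule therefore cuts through a stretch of low share that already holds the genes from about 75 Mb. Hif1a, Snapc1, Ppp2r5e and Wdr89 were chosen after their values were seen.

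At the threshold itself, the genes just outside were Rdh11 with a mean share of 0.249, Zfyve26 with 0.262 and Rad51b with 0.317. Just inside were Zfp36l1, an RNA-binding protein that promotes mRNA decay, with 0.260, the non-coding 2310015A10Rik with 0.473, and Actn1, an alpha-actinin, with 0.328. On the length threshold, Cep128 was the longest member, at 385919 bases, with 0.284, and Rgs6 was the shortest gene left out by it, at 541777 bases, with 0.716. Ptprn2, also left out by length, had 0.257 and Nrxn3 0.309. Esrrb, left out by name, had 0.283, while the imprinted Meg3, Rian and Mirg had 0.138, 0.154 and 0.134.

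Within the segment, all windows of 5 Mb with at least 5 genes had medians below 0.35 in 12 of 12 libraries. The highest were the 34 genes between 85 and 90 Mb, with medians from 0.268 to 0.327, and the lowest the 12 genes between 115 and 120 Mb, from 0.230 to 0.255, and the 11 genes between 95 and 100 Mb, from 0.230 to 0.258. The 48 genes between 80 and 85 Mb lay from 0.272 to 0.297, and the 37 genes between 110 and 115 Mb from 0.265 to 0.286. These ranges overlap in part. None of these windows reached 0.447, the lowest window median of the rest of the chromosome outside 75 to 80 Mb. The window from 90 to 95 Mb held fewer than 5 genes and is not among them. Its genes Cep128, Gtf2a1, Ston2 and Sel1l had mean shares of 0.284, 0.415, 0.412 and 0.240.

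**Figure D2:**
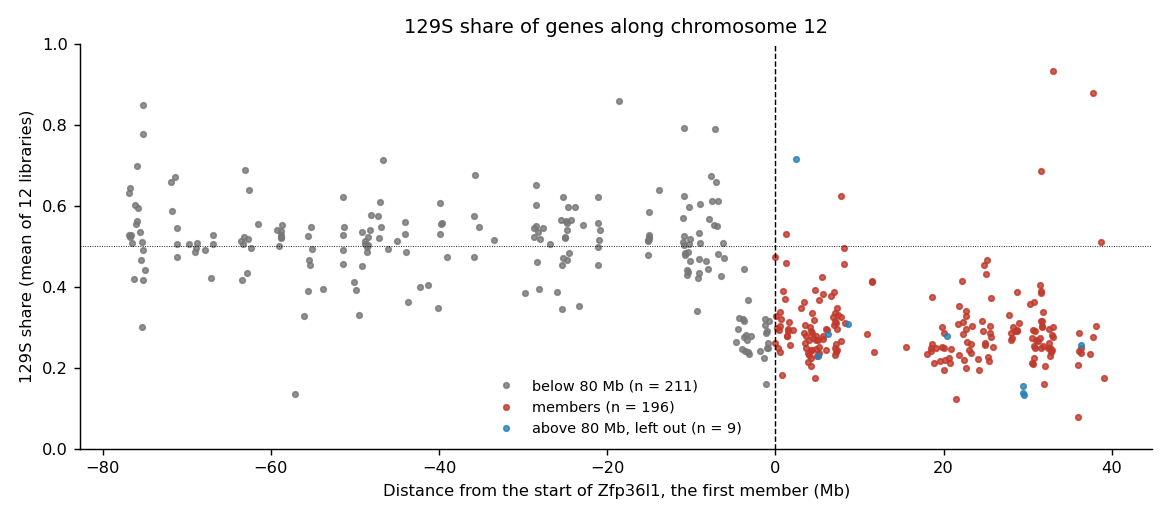
Mean 129S share over 12 libraries (vertical axis) of each gene on chromosome 12 with 50 or more allelic counts on average, by distance in Mb from the start of Zfp36l1 (horizontal axis, dashed line). The 196 members lie mostly near 0.280, as do the genes in the last 5 Mb before them, while genes further to the left scatter around 0.5.

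Gene by gene, the mean share over the 12 libraries of the middle 50% of the 196 members ran from 0.245 to 0.317, and 5% lay below 0.205 and 5% above 0.458. A share under 0.35, a value chosen after the shares were seen, was found for 162 of 196 members (82.7%), against 14.7% of the genes on chromosome 12 below 80 Mb and 6.0% of those on the other autosomes. On chromosome 8, which is part of the other autosomes, it was found for 46.9% of 588 genes. The genes below 80 Mb include the 26 between 75 and 80 Mb, whose window medians were from 0.254 to 0.290. Only 6 members had a mean share above 0.5 and 9 had one below 0.2. For the 170 members with at least 50 allelic counts in every library, the range of share over the 12 libraries had a median of 0.0668, and the variance between libraries was 1.60 times that of binomial counting. The same factor was 1.44 on chromosome 12 below 80 Mb and 1.65 on the other autosomes, so the members lay between these sets.

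Of the genes of highest level per length, Rbm25, Dync1h1, Papola and D430020J02Rik had a mean share within the middle 50% of the members, and Hsp90aa1, Srsf5, Eif5, Alkbh1 and Ckb one outside it. Hsp90aa1, the inducible cytosolic Hsp90 chaperone, had 172 CPM per kb and shares from 0.186 to 0.229. Srsf5, an SR protein of splicing, had 89.0 CPM per kb, and its share was 0.179 in both WT libraries, from 0.181 to 0.201 in XistDelA, and 0.147, 0.148, 0.163 and 0.234 in XistDelm6A/T1_11C. Eif5, which activates the GTPase of the initiation complex in translation, had 82.6 CPM per kb. Its share was 0.436 and 0.435 in WT and from 0.420 to 0.452 in XistDelA, but 0.363 and 0.357 in XistDelm6A/T1_11C replicate 1 and 0.318 and 0.292 in replicate 2. The XistDelm6A/T1_11C libraries were thus all below the other 8 at Eif5, and its level was lower there as well, from 250.4 to 566 CPM against 737 to 1144 CPM. This difference between lines was not tested. Levels of single members in each library are given in CPM scaled by TMM factors, and CPM per kb and the levels of Xist and the markers are scaled to the library total.

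Rbm25, a regulator of splicing, had 43.1 CPM per kb and a mean share of 0.260, Dync1h1, the heavy chain of cytoplasmic dynein, 21.5 and 0.274, and Papola, a poly(A) polymerase, 15.0 and 0.276. Alkbh1, a dioxygenase that acts on nucleic acids, had 18.7 and 0.347, and the non-coding D430020J02Rik 13.2 and 0.249. The second highest level, 92.2 CPM per kb, belonged to 6430411K18Rik, which lies within the Dlk1-Meg3 cluster opposite Rtl1. With a mean of 0.25 allelic counts, it carried no information on share.

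Among the genes of highest level, Ckb, the brain-type creatine kinase, had a share above 0.5. Its 129S share was 0.679 and 0.689 in WT, from 0.651 to 0.676 in XistDelA, and 0.758, 0.703, 0.677 and 0.748 in XistDelm6A/T1_11C, on at least 400 allelic counts in each library. All 12 values were above 0.5. Among the 170 members with at least 50 allelic counts in every library, Dnah11, a heavy chain of axonemal dynein, was higher still, with shares from 0.784 to 0.938, but at a level of 0.0362 CPM per kb. Abcb5, an ABC transporter, had a mean of 0.510, 2310015A10Rik 0.473 and Tunar, a transcript known from pluripotent and neural cells, 0.466. Crip2 had a mean of 0.934 with under 50 allelic counts in some libraries. Gm2016, at 0.624, and Gm4787, at 0.531, complete the members above 0.5, and their shares are uncertain where near-identical copies share reads. These genes with under 50 allelic counts in some library were chosen after their values were seen.

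At the other end of the same 170 members, Vipr2, a receptor for vasoactive intestinal peptide, had the lowest mean share, 0.0779, with values from 0.0400 to 0.132. Tc2n had 0.123, with values from 0.0936 to 0.149, and Aspg, an asparaginase, 0.160, with values from 0.114 to 0.205. Ltbp2, a protein of the extracellular matrix, had 0.174 and Srsf5 0.183. Vipr2 was measured on as few as 70 allelic counts in a library, so that its values carry wide intervals. In WT without Dox its share of 0.0411 had a 95% Wilson interval from 0.0141 to 0.114.

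Among these 170 members, Smoc1 had the widest range of share outside multigene families, and it differed between lines more than between states. Its product is a secreted matrix protein that modulates BMP signalling. The share was 0.472 and 0.461 in WT, 0.354 and 0.353 in C1, 0.444 and 0.441 in 2C2, and 0.492 and 0.493 in C11, without and with Dox. In XistDelm6A/T1_11C it was 0.311 and 0.312 in replicate 1 and 0.270 and 0.264 in replicate 2. The libraries without and with Dox of a pair differed by at most 0.0109, while the range over all 12 was 0.229. The level of Smoc1 ran the other way, from 82.5 to 177 CPM in WT and XistDelA and from 269 to 417 CPM in XistDelm6A/T1_11C. Serpina3m, of a multigene family in which reads may be split between copies, had a range of 0.333 and is uncertain. Slirp, which binds mitochondrial mRNAs, had a range of 0.221, from 0.154 in XistDelm6A/T1_11C replicate 2 with Dox to 0.375 in WT without Dox. Ak7, an adenylate kinase, had a range of 0.226 and Tcl1, a coactivator of Akt, one of 0.210, each with as few as 54 and 56 allelic counts in a library. Plekhd1, Noxred1, Tunar, Gtf2a1 and Xrcc3 followed, with ranges from 0.162 to 0.189.

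**Figure D3:**
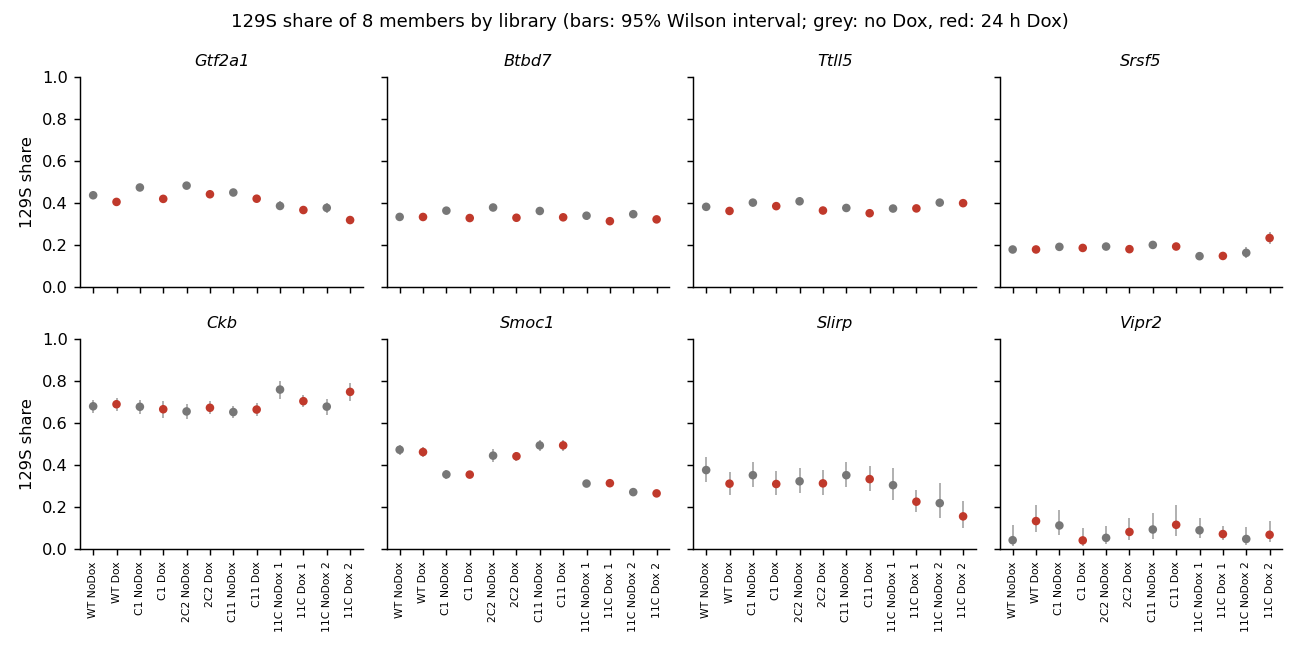
129S share (vertical axis) of 8 members in each library (horizontal axis; 11C stands for XistDelm6A/T1_11C), with 95% Wilson intervals, grey without Dox and red after 24 h of Dox. Ckb is above 0.5 in all 12 libraries, Srsf5 and Vipr2 are below 0.25, and Smoc1 differs by line.

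The lists of genes by role had median shares close to one another. The median was 0.301 over 5 genes of genome maintenance, from 0.233 in Mlh3, a mismatch repair protein, to 0.362 in Cinp. It was 0.268 over 14 genes of RNA processing, from Srsf5 to 0.384 in Trmt61a, a tRNA methyltransferase subunit. Over 14 genes of transcription and chromatin it was 0.293, from 0.225 in Zfp410 to 0.425 in Jdp2, and over 14 signalling genes 0.271, from 0.219 in Itpk1, an inositol phosphate kinase, to 0.433 in Tcl1. Protein folding and turnover had the lowest median of these lists with several genes, 0.25 over 8, from 0.194 in Psmc1, an ATPase of the proteasome, to 0.352 in Atxn3, a deubiquitinase. Metabolism and mitochondria had 0.274 over 13 genes, from 0.228 in Dlst to Ckb, and translation 0.291 over 3. Of the 10 tissue-restricted genes listed, 9 were in the files and 8 were members, of which 1, Flrt2, had enough allelic counts, with 0.251, while Nrxn3, left out by length, had 0.309. The differences between lists were not tested.

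The total level of the segment was compared between libraries. Each gene was taken on the log2 CPM scale relative to its mean over the 5 lines, and the median over 214 members was compared with that over 11348 genes of the other autosomes. The members minus the other autosomes gave -0.01 in WT without Dox and 0.02 with Dox, -0.07 and 0.00 in C1, -0.06 and 0.03 in 2C2, and -0.03 and 0.03 in C11. In XistDelm6A/T1_11C it gave 0.00 and 0.08 in replicate 1 and 0.02 and 0.04 in replicate 2. The median of the members alone ran from -0.07 to 0.13, a range of 0.20, against 0.11 on the other autosomes, 0.21 on chromosome 8, 0.25 on chromosome 12 below 80 Mb and 0.56 on chromosome 11. Scaled by total counts in place of TMM, the range was 0.44 over the members, 0.33 on the other autosomes, 0.45 on chromosome 8, 0.15 on chromosome 12 below 80 Mb and 0.79 on chromosome 11, so the order of the sets depends on the scaling. The highest value was in XistDelm6A/T1_11C replicate 1 with Dox, the deepest library, while the lowest was in C1 without Dox and not in the shallowest library, XistDelm6A/T1_11C replicate 2 without Dox. The part of depth was not tested.

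Each allele was then taken apart over 194 members. The 129S level of the members minus that of the other autosomes lay from -0.08 to 0.07 on the log2 scale, and the Cast level from -0.10 to 0.15. The Cast level was above that of the other autosomes in all 4 XistDelm6A/T1_11C libraries, with 0.05 and 0.15 in replicate 1 and 0.08 and 0.07 in replicate 2, and below it in the 3 XistDelA libraries without Dox, with -0.04 in C1, -0.10 in 2C2 and -0.07 in C11. With Dox, the same clones gave 0.02, 0.01 and 0.00, and WT gave -0.02 without Dox and 0.01 with Dox. The 129S level was also below that of the other autosomes in these clones without Dox, at -0.08, -0.08 and -0.05. With Dox, their 129S level was 0.02, 0.03 and 0.04. In XistDelm6A/T1_11C the 129S level was 0.00 and 0.07 in replicate 1 and -0.07 and -0.05 in replicate 2, and in WT 0.00 and 0.06. As each gene is set against its own mean over lines, these values compare libraries and do not show the level of one allele against the other. They carry no test, since the segment was selected on level as well as share.

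**Figure D4:**
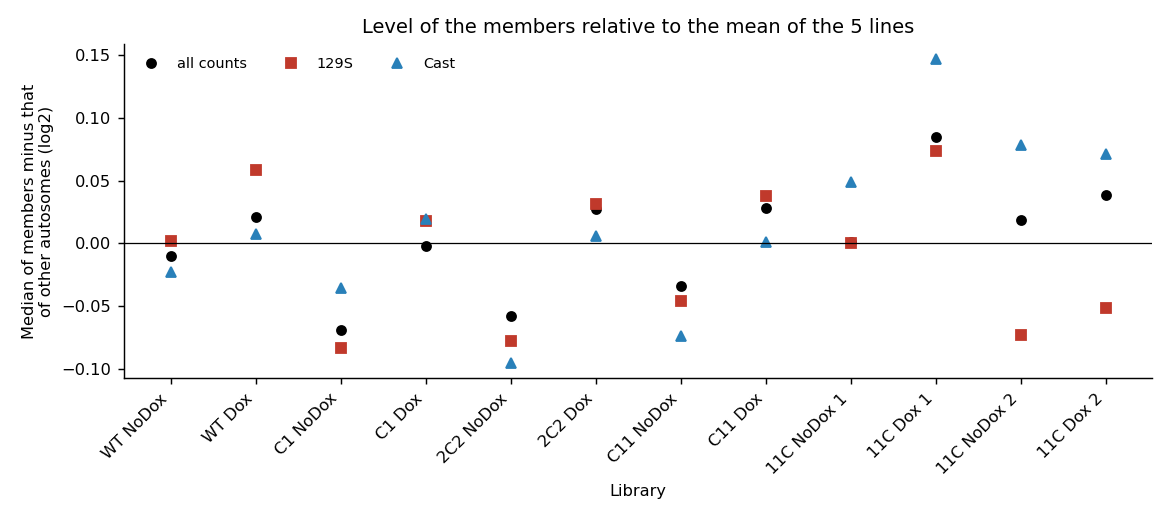
Median log2 level of the members minus that of the other autosomes (vertical axis) in each library (horizontal axis; 11C stands for XistDelm6A/T1_11C), for all counts, 129S counts and Cast counts. All values lie between -0.10 and 0.15.

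The response to Dox was not used by the rule and was tested. In the total counts of XistDelA, edgeR's quasi-likelihood test with Benjamini-Hochberg adjustment called 0 of 254 members and 3 of 14866 genes (0.0202%) at an adjusted p of 0.05, while 57 members and 2162 genes had an unadjusted p under 0.05 and DESeq2 called 10 of 207 members against 362 of 11809 genes (3.07%). The states of a clone belong together, and with the clone as a replicate block edgeR called 95 of 254 members (37.4%), against 4410 of 14866 genes (29.7%). Of the members, 68 were higher with Dox, against 14.8% of all genes, and 27 were lower, against 14.9% of all genes. On chromosome 12 below 80 Mb, the same fit called 37.7%. The count rests on the block and on the clones, since it was 48 without C1, 62 without 2C2 and 99 without C11, and these fits with both changes were chosen after seeing the data. Of the 95 members, 43 (45.3%) were called in each of these fits, against 39.4% of the 4410 genes. The direction was the same in all 3 clones for 91 (95.8%), against 96.6%, and in the WT pair for 86 (90.5%), against 87.9%. The calls were made on these same clones, and the shares are near those of all called genes.

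The shift of the members as a whole was small. With the clone as a block, their median log2 change was 0.07, against 0.01 over all genes tested. In single pairs, the median over 214 members was 0.05 in WT, 0.07 in C1, 0.09 in 2C2 and 0.06 in C11, and 0.09 and 0.05 in XistDelm6A/T1_11C replicates 1 and 2. The other autosomes had 0.00, 0.00, 0.02, 0.01, 0.03 and 0.04 in the same order, so the members were higher in each of the 6 pairs. The library with Dox was also the deeper one in each of the 6 pairs, and the part of depth in this shift was not tested. Of the mESC markers, Zfp42 was higher and Tdgf1 lower with Dox in each of the 6 pairs. In C1, for example, Zfp42 was 689 and 912 CPM and Tdgf1 201 and 138 CPM. The other detected mESC markers went both ways over the pairs, and the part of these markers in the shift was not tested. The members were not the highest set in every pair. In XistDelm6A/T1_11C, chromosomes 8 and 11 had 0.10 and 0.12 in replicate 1, and chromosome 12 below 80 Mb had 0.09 in replicate 2, each above the members, while it ran from -0.07 to 0.02 in the other 5 pairs. These medians are descriptions, because the members were chosen with results known.

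**Figure D5:**
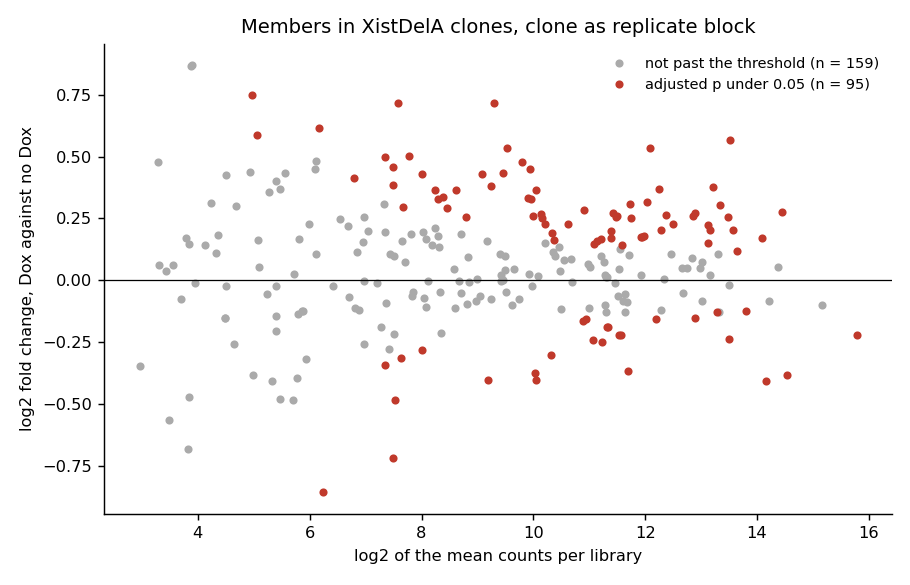
Log2 fold change with Dox in XistDelA (vertical axis) of 254 members against the log2 of their mean counts per library (horizontal axis), from edgeR with the clone as a replicate block. Of the 95 members past the threshold (red), 68 are above 0 and 27 below.

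The member with the smallest adjusted p was 4933426M11Rik. Its level was 355 and 541 CPM in C1, 318 and 494 CPM in 2C2, and 331 and 454 CPM in C11, without and with Dox, so that every clone was higher with Dox. Its log2 fold change was 0.57 ± 0.05 (SE, edgeR with the clone as a block, adjusted p = 6.69e-10). In WT it was 405 and 501 CPM. Efcab11, an EF-hand protein, was 120.0 and 175 CPM in C1, 102.4 and 147 CPM in 2C2, and 107 and 155 CPM in C11, a change of 0.53 ± 0.05 (SE, edgeR, adjusted p = 4.41e-09). Both groups of XistDelA libraries were apart at Efcab11. Jdp2, a bZIP protein that represses transcription at AP-1 sites, was 13.2 and 20.8 CPM in C1, 11.6 and 19.0 CPM in 2C2, and 11.7 and 20.0 CPM in C11, a change of 0.72 ± 0.09 (SE, edgeR, adjusted p = 2.68e-07). It was higher with Dox in WT as well, at 10.9 and 16.4 CPM, and its level in XistDelm6A/T1_11C was higher in both states, at 40.7 and 52.3 CPM in replicate 1 and 26.9 and 34.8 CPM in replicate 2. Rapgef5, an exchange factor for Rap GTPases, rose by 0.38 and Ppp1r13b, which encodes the p53-binding protein ASPP1, by 0.45 in the same fit (adjusted p = 3.28e-07 and 5.87e-06, edgeR).

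Among the genes that fell, Eif5 was 970.1 and 737 CPM in C1, 1144 and 788 CPM in 2C2, and 972 and 795 CPM in C11, a log2 fold change of -0.41 ± 0.05 (SE, edgeR with the clone as a block, adjusted p = 2.28e-07). All 3 libraries with Dox were below all 3 without. Hsp90aa1 was 1247 and 854 CPM in C1, 1413 and 1012 CPM in 2C2, and 1161 and 1058 CPM in C11, a change of -0.38 ± 0.05 (SE, edgeR, adjusted p = 3.97e-06). It was lower with Dox in each of the 6 pairs, with 1277 and 1008 CPM in WT, 617 and 470.2 CPM in XistDelm6A/T1_11C replicate 1 and 607 and 439.9 CPM in replicate 2. Erh, a small conserved nuclear protein, fell by 0.37, Tmem251, which is needed for the sorting of lysosomal enzymes, fell by 0.72, and Zfp36l1 fell by 0.40 on the log2 scale (edgeR, adjusted p = 1.65e-06, 8.45e-06 and 1.05e-05). All of these 10 members were also called with each clone left out in turn. DESeq2 without the block called 6 of them, together with Ift43, Acyp1, Tdp1 and Vrk1.

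By role, and with the clone as a block, the list of protein folding and turnover had 5 of 8 tested genes lower and 1 higher. Lower were Hsp90aa1, its activator Ahsa1 (-0.16), Bag5, a cochaperone of Hsp70 (-0.34), Psmc1 (-0.19) and Atxn3 (-0.16), and Otub2, a deubiquitinase, was higher (0.46). Transcription and chromatin had 8 of 17 higher and 2 lower. Higher were Jdp2, Bcl11b (0.48), Foxn3 (0.30), Dpf3 (0.29), Rcor1, a subunit of CoREST (0.26), Mta1, a subunit of NuRD (0.25), Zfp410 (0.15) and Lin52 (0.12), and lower were the Mediator subunit Med6 (-0.25) and cyclin K, encoded by Ccnk (-0.16). Of 14 signalling genes tested, 6 were higher, among them the Notch ligand Jag2 (0.38), the Notch antagonist Numb (0.23) and the kinase Vrk1 (0.26), and Smek1 was among those that were lower (-0.13). RNA processing had 1 of 14 higher, Ylpm1 (0.20), and 3 lower, namely Rbm25 (-0.22), the polyadenylation factor Cpsf2 (-0.22) and Zfp36l1. These counts stand beside 14.8% and 14.9% of all genes called higher and lower, and the lists themselves were not tested. Of the genes named here, Hsp90aa1, Otub2, Jdp2, Bcl11b, Foxn3, Rcor1, Mta1, Med6, Jag2, Vrk1, Rbm25 and Zfp36l1 were also called with each clone left out in turn, while the others lost their call without at least 1 clone, and Zfp410 lost it whichever clone was left out.

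Calls in the remaining lists also stand beside 14.8% and 14.9% of all genes called higher and lower, and these lists were not tested. In genome maintenance, Tdp1, which removes stalled topoisomerase I from DNA, was higher (0.26) and Alkbh1 lower (-0.15) among 5 tested. In metabolism and mitochondria, Glrx5, which takes part in iron-sulfur cluster assembly, was higher (0.38) and Npc2, a lysosomal cholesterol carrier (-0.38), and Ckb (-0.30) were lower among 14. In translation, Eif5 was the gene called among 3, and of 3 tissue-restricted genes tested, the thyrotropin receptor gene Tshr was called (0.62), although the clones did not move the same way, since its log2 change was 0.76 in C1 and 1.11 in 2C2 but -0.21 in C11. Tdp1, Npc2 and Eif5 were also called with each clone left out in turn, and Alkbh1, Glrx5, Ckb and Tshr were not.

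In XistDelm6A/T1_11C, edgeR called 0 of 256 members and 0 of 15140 genes (0%), with 2 members and 173 genes at an unadjusted p under 0.05, and DESeq2 called 0 members and 3 genes. With the replicate number as a block, edgeR called 2 members, both higher with Dox, and 237 genes, but these replicates share only a number. The median log2 change of the members was 0.05, against 0.00 over all genes tested. With 2 libraries in each state, these counts do not show that the members did not respond.

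The Dox response in share was tested with the clone or replicate as a block, by edgeR on the counts of both alleles. In XistDelA, 3 of 238 members were called, against 140 of 13390 genes (1.05%), and 27 members had an unadjusted p under 0.05. All 3 had a lower 129S share with Dox. The count was 1 without C1, 2 without 2C2 and 5 without C11, of which 2 were higher. In XistDelm6A/T1_11C, edgeR called 0 of 238 members, against 200 of 13710 genes (1.46%), with 19 members at an unadjusted p under 0.05, and no other tool was run on shares. Of these 200 genes, 162 were on the X chromosome, and on the other autosomes 0.291% of 12704 genes were called there and 0.921% of 12374 in XistDelA. The replicates of that line share only a number, and with no replicate block edgeR called 106 of 13710 genes and 0 members, with 3 members at an unadjusted p under 0.05. The members' share of calls in XistDelA, 1.26%, is near that of all genes.

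Gtf2a1, which encodes a subunit of the general transcription factor TFIIA, had a 129S share of 0.474 and 0.420 in C1, 0.483 and 0.442 in 2C2, and 0.450 and 0.421 in C11, without and with Dox. The 3 libraries with Dox were below the 3 without, by 0.0416 ± 0.0124 (SD, n = 3) on average, and the 129S to Cast ratio changed by -0.24 ± 0.04 (log2, SE, edgeR, adjusted p = 1.79e-05). The share was 0.437 and 0.406 in WT, and 0.386 and 0.367, and 0.377 and 0.319 in XistDelm6A/T1_11C, so that it was lower with Dox in each of the 6 pairs, although in XistDelm6A/T1_11C the change was not past the threshold (edgeR, adjusted p = 0.103). Without C1 the adjusted p was 0.0712 in XistDelA. In total counts, the log2 changes of Gtf2a1 ran from -0.08 to 0.23 in the clones and were 0.20 in WT and 0.41 and 0.39 in XistDelm6A/T1_11C replicates 1 and 2.

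Btbd7, which encodes a BTB domain protein, had shares of 0.364 and 0.329 in C1, 0.379 and 0.330 in 2C2, and 0.362 and 0.332 in C11. The groups did not overlap, and the ratio changed by -0.24 ± 0.04 (log2, SE, edgeR, adjusted p = 3.49e-06). It was called with each clone left out in turn, with 0.334 in both WT libraries, 0.340 and 0.314 in XistDelm6A/T1_11C replicate 1 and 0.347 and 0.322 in replicate 2. Ttll5, a tubulin glutamylase, had 0.402 and 0.386 in C1, 0.409 and 0.365 in 2C2, and 0.377 and 0.352 in C11, a change of -0.17 ± 0.04 (log2, SE, edgeR, adjusted p = 0.0234). The groups overlapped at Ttll5, and it was not called with any 1 clone left out, with adjusted p from 0.0872 to 0.447. Its share was 0.382 and 0.363 in WT. In XistDelm6A/T1_11C it was 0.374 and 0.375 in replicate 1 and 0.402 and 0.400 in replicate 2, without and with Dox. Without the block, edgeR called 0 members and 0 genes in XistDelA, with 9 members at an unadjusted p under 0.05.

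Over all 196 members, the median change in share with Dox was 0.00278 in WT, -0.00174 in C1, -0.00211 in 2C2, -0.000496 in C11, and -0.00269 and 0.00382 in XistDelm6A/T1_11C. The share was lower with Dox for 84, 104, 102, 99, 106 and 88 of the 196 members in these pairs. In every pair, 90% of the members lay within changes from -0.0767 to 0.0922, and the median changes were all smaller in size than the SD over lines of 0.00518. The gap between the members and the other autosomes was thus present in both states of every line.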

How the data were processed

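The authors aligned reads to mm10, used featureCounts (version 1.5.2) to count read pairs per gene, introns included and by strand, and deposited raw counts for all read pairs and for those assigned to each parental genome. The submitters' processing notes also name STAR (version 2.4.2a) and Bowtie2 (version 2.3.2). The parental genome that held most allelic Xist reads was called 129S. The members and gene lists were chosen with earlier results of these data known.

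Dox responses were tested with edgeR (version 4.0.16) in R 4.3.3, by quasi-likelihood F tests over all genes with TMM factors, filterByExpr (minimum count 10) and Benjamini-Hochberg adjustment at 0.05. Shares were tested as the allele-by-Dox term on genes with 10 or more allelic counts on average. An SE is approximate, as the log2 change divided by the root of F. DESeq2 (version 1.42.0) was an alternative, as were normalization, count filters, pseudocounts (0.5 or 5), pairing, all 12 libraries in 1 fit and leaving out replicates. Levels used log2 CPM with TMM factors, and intervals came from Python 3.11.15. Wilson intervals and the depth of 18893447 to 36007145 counts give counting error only.

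The libraries with and without Dox of an XistDelA clone come from the same cell line, by the clone names of the labels. Their deviations from the group means correlated over 16254 genes, at 0.595 in C1, 0.368 in 2C2 and 0.537 in C11, so the clone pairs them.

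Named genes are the listed genes, the 10 members of highest level per length and, among members with at least 50 allelic counts in every library, the 10 of widest share range and the 5 highest and 5 lowest shares, up to 10 called per fit, and the 3 genes on each side of 80 Mb. Other genes were chosen after their values were seen. The result of 1 listed gene is not reported here. WT has 1 library in each state and entered no test.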

Additional observations from a re-analysis of the deposited data

Results flagged for a closer look

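The 95 members called in XistDelA with the clone as a block were compared with the change per pair in XistDelm6A/T1_11C. For 10 of them (10.5%), every XistDelA clone moved one way with Dox and both XistDelm6A/T1_11C replicates the other way, against 422 of 4410 genes called in the same fit (9.57%). The mean log2 change in XistDelA minus that in XistDelm6A/T1_11C was -0.68 for Zfp36l1, -0.32 for Med6, -0.34 for Nrde2, -0.31 for Alkbh1, -0.28 for Atxn3, -0.30 for Ccnk and -0.22 for Ahsa1, which were lower with Dox in XistDelA. It was 0.66 for Otub2, 0.30 for Trip11 and 0.43 for Glrx5, which were higher. These differences between the lines were not tested. For Zfp36l1, the log2 changes ran from -0.48 to -0.36 in the 3 clones and were 0.17 and 0.37 in the XistDelm6A/T1_11C replicates, and -0.20 in WT.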

How the results depend on the processing

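The median 129S share of the members, 0.280, stayed within the SD over lines with a minimum of 10 allelic counts, with pooled counts and with genes of mean share from 0.1 to 0.9 only. The range of the members' level over libraries was 0.20, and 0.44 when scaled by total counts in place of TMM. For the 129S level it was 0.32, with 0.39 by total counts and 0.24 with a pseudocount of 5, and for the Cast level 0.16, with 0.39 by total counts. This range was chosen as the measure of level after seeing the data, since scaling by total counts cancels in a difference from the other autosomes.

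In XistDelA total counts, 0 members and 3 genes were called. The replicate block gave 95 and 4410, DESeq2 10 and 362, and leaving out 1 clone from 0 to 2 genes and 0 members. The block without 2C2, C1 and C11, added after seeing the data, gave 62, 48 and 99 members and 2786, 2152 and 4996 genes. In XistDelm6A/T1_11C, 0 members and 0 genes were called. DESeq2 gave 3 genes, no count filter 2, all 12 libraries 2, and leaving out either replicate 1, in a fit with all lines where the spread comes from XistDelA and the lone libraries are assumed to vary like it.

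The XistDelm6A/T1_11C replicates share only a number. Their deviations correlated at 0.691, and with this replicate block 2 members (2310015A10Rik and Tmem63c, both higher) and 237 genes were called. In share, XistDelA gave 3 members and 140 genes, and 0 and 0 with no replicate block. Leaving out 1 clone gave from 1 to 5 members and from 57 to 76 genes. XistDelm6A/T1_11C gave 200 genes, and 106 with no replicate block. The cause of these changes was not tested. Of 338 members, 214 had 50 or more counts on average and 196 had 50 or more allelic counts. WT has 1 pair, the share was selected on these libraries, and RNA abundance is relative within a library.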
